A study of Homo sapiens with 8 samples.

Results

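The genes described here are 52 that act in or around DNA replication, most of them known targets of the E2F transcription factors. They were taken by symbol from a fixed list of genes for origin licensing, the replication fork, nucleotide supply and S-phase repair. All 52 were found among the 27140 genes of the counts table, and all 52 were among the 15289 that passed the filter on low counts, so no member was lost. RNA sequencing covered 8 libraries of LNCaP, a human prostate adenocarcinoma line that depends on the androgen receptor, in 4 groups of 2. Every group was a stable line made with lentivirus and selected in puromycin at 1 µg/ml. The control line carried a control hairpin and a vector (shCtrl_vector). The knockdown line (shMETTL3_vector) carried a hairpin against METTL3, the catalytic subunit of the enzyme that writes N6-methyladenosine on messenger RNA, and a vector. The wild-type rescue (shMETTL3_WT) carried the METTL3 hairpin and a hairpin-resistant wild-type METTL3, and the mutant rescue (shMETTL3_MT) carried the same hairpin and a resistant, catalytically dead METTL3. The question the design addresses is which changes after loss of METTL3 return with the active enzyme and which return with the inactive one.

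Each group is 1 derived line with 2 libraries. Whether these 2 came from separate cultures is not in the labels, so p-values measure the spread between these libraries, which may be technical. Differences between lines may also come from how a line was derived, which cannot be told apart from the transgene it carries.

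Before a cell copies its DNA, origin recognition complex subunits, CDC6 and CDT1 load the hexameric MCM helicase onto origins, and geminin (GMNN) blocks CDT1 once S phase has begun. CDC45 and the GINS complex then turn the loaded helicase into an active motor, polymerase alpha with primase lays down primers, and polymerases delta and epsilon copy the strands while held by the PCNA ring. E2F factors switch on most of these genes late in G1, when cyclin-dependent kinases have inactivated the retinoblastoma protein, and cyclin E takes part in that switch. In bulk RNA, fewer cells in S phase and less RNA per cell cannot be told apart.

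The libraries held 15200343 to 17893241 counts, and the members together took a share near 0.27% in the control. METTL3 itself stood at 68.4 ± 0.0784 CPM in control, 28.8 ± 3.64 in knockdown, 317 ± 10.8 in wild-type rescue and 333.7 ± 0.632 in mutant rescue (CPM, counts scaled to library size after TMM normalization, mean ± SD, n = 2 each). The 2 rescue lines therefore carried METTL3 RNA well above the control, and the knockdown line carried less than the control, as labelled. These counts do not tell wild-type from mutant METTL3, so which rescue is which rests on the labels. KLK3, which encodes prostate-specific antigen, was at 3694 ± 15.3, 2617 ± 27.1, 2984 ± 44.9 and 3086 ± 27.0 CPM in the same order. All 9 luminal prostate markers were expressed, summing to 9434 to 9482 CPM in control and 7592 to 7893 in the 6 hairpin libraries. Of 3 fibroblast markers COL1A2 had no counts in any library, but COL1A1 and VIM were expressed, and their sum was 84.59 to 86.29 CPM in control, 88.69 to 96.71 in knockdown, 101.6 to 107.6 in wild-type rescue and 104.1 to 111.2 in mutant rescue libraries. COL1A1 rose in every pairwise comparison in that order of lines, by 0.38 between control and mutant rescue (adjusted p = 4.35e-14). The 3 basal markers summed to 2.644 to 4.006 CPM over the 8 libraries, mostly from KRT14, the 2 neuroendocrine markers to 1.716 to 3.315, and PTPRC (leukocyte) and PECAM1 (endothelium) were at 0.3867 or less. RNR1 and RNR2, by their lengths of 954 and 1558 bases the mitochondrial ribosomal RNA genes, took 3.22 to 3.27% of counts in control libraries. They took 2.44 to 2.48% in knockdown, 2.74 to 2.79% in wild-type rescue and 2.71 to 2.72% in mutant rescue libraries. The part of these markers and of RNR1 and RNR2 in the differences below was not tested.

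The promoters of 6 members are shown for their changes in the mutant rescue. Relative to the wild-type rescue the MCM helicase genes fell together in that line, while CDT1 and POLE rose. Against the control POLE was also higher there, but the CDT1 libraries of the 2 lines overlapped. Each stretch runs from 200 bases before to 20 bases after the annotated start, 5′ to 3′ on the gene's strand, from RefSeq on GRCh38.p14. Capitals mark the 8-letter strings TTTGGCGC, TTTCCCGC, TTTGCCGC and TTTCGCGC, or their reverse complements, which are common forms of the E2F motif.
MCM2, chr3:127598211-127598430, plus strand: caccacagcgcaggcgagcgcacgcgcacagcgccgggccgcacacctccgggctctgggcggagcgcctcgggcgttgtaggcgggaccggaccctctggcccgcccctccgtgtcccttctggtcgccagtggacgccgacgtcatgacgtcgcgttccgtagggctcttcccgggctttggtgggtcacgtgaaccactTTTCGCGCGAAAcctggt
MCM3, chr6:52284723-52284942, minus strand: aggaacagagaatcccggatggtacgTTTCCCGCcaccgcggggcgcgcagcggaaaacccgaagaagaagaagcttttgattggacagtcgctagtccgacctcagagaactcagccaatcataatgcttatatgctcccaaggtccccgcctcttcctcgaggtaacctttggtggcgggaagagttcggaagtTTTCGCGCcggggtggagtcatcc
MCM6, chr2:135876424-135876643, minus strand: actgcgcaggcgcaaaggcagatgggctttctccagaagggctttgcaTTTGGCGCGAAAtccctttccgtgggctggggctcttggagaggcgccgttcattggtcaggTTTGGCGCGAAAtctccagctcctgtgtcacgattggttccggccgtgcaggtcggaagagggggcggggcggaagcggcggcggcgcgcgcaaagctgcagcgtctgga
MCM7, chr7:100101378-100101597, minus strand: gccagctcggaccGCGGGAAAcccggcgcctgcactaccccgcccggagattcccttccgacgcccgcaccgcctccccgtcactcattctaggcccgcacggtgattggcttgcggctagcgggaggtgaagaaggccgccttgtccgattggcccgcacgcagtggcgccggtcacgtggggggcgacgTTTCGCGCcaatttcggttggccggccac
CDT1, chr16:88803589-88803808, plus strand: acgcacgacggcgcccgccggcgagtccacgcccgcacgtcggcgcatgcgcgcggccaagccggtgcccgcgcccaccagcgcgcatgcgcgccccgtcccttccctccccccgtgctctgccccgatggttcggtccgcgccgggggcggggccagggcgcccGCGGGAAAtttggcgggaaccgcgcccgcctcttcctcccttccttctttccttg
POLE, chr12:132687323-132687542, minus strand: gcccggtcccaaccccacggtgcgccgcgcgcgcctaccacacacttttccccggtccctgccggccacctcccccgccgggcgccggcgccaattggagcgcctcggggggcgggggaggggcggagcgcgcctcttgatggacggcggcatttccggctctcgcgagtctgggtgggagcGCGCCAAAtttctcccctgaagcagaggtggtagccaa
In MCM2 the 2 matches overlap on opposite strands and form a single element just after the start. In MCM6 the 4 matches form a pair of such elements upstream of it. The MCM3 and MCM7 promoters held 2 separate matches each, and those of CDT1 and POLE held 1 each. These 6 promoters were picked by the changes of their genes in these data. Whether the number of matches goes with the direction of change was not tested. Other forms of the E2F motif were not searched, so unmarked stretches may hold them.

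Promoter entries existed for 46 of the 52 members. MCM4, MCM5, GINS4, POLD3, E2F8 and CCNE2 had no entry. Searched from 250 bases before to 50 after the start, on both strands, 22 of the 46 promoters (47.8%) held at least 1 of the 4 strings, against 574 of 11109 promoters of tested genes (5.17%) and 1164 of 35116 in the whole table (3.31%). All 4 MCM helicase genes with an entry held a string. The letters CCAAT, bound by NF-Y, were in 24 member promoters (52.2%) and in 36.4% of those of tested genes. The string TTTGAA, the core of the element read by the DREAM complex in late cell cycle genes, was in 1 (2.17%), that of RRM1, against 9.53% of those of tested genes. E2F strings were found among members that fell and among members that were not called. In the mutant rescue relative to the wild-type rescue, 9 of 18 members that fell held one (50%), as did 11 of 25 that were not called (44%). In the knockdown against the control the figures were 7 of 18 (38.9%) and 15 of 26 (57.7%). A match describes the letters in the window and is not a measured binding site.

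Across the 4 lines the members as a whole were highest in the control and lowest in the mutant rescue. Their summed level was 2722 ± 4.773 CPM in control, 2514 ± 7.799 in knockdown (92.34% of the control), 2529 ± 20.73 in wild-type rescue (92.9%) and 2307 ± 16.33 in mutant rescue (84.76%; mean ± SD, n = 2 each). By group mean, 33 of the 52 members were highest in the control and 31 were lowest in the mutant rescue. How many of all tested genes have either order was not counted, so these counts have no background beside them. The heat map of log2 CPM over the control mean shows the high control and the low mutant rescue, with the darkest block at the MCM helicase genes of the mutant rescue.

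**Figure D1:**
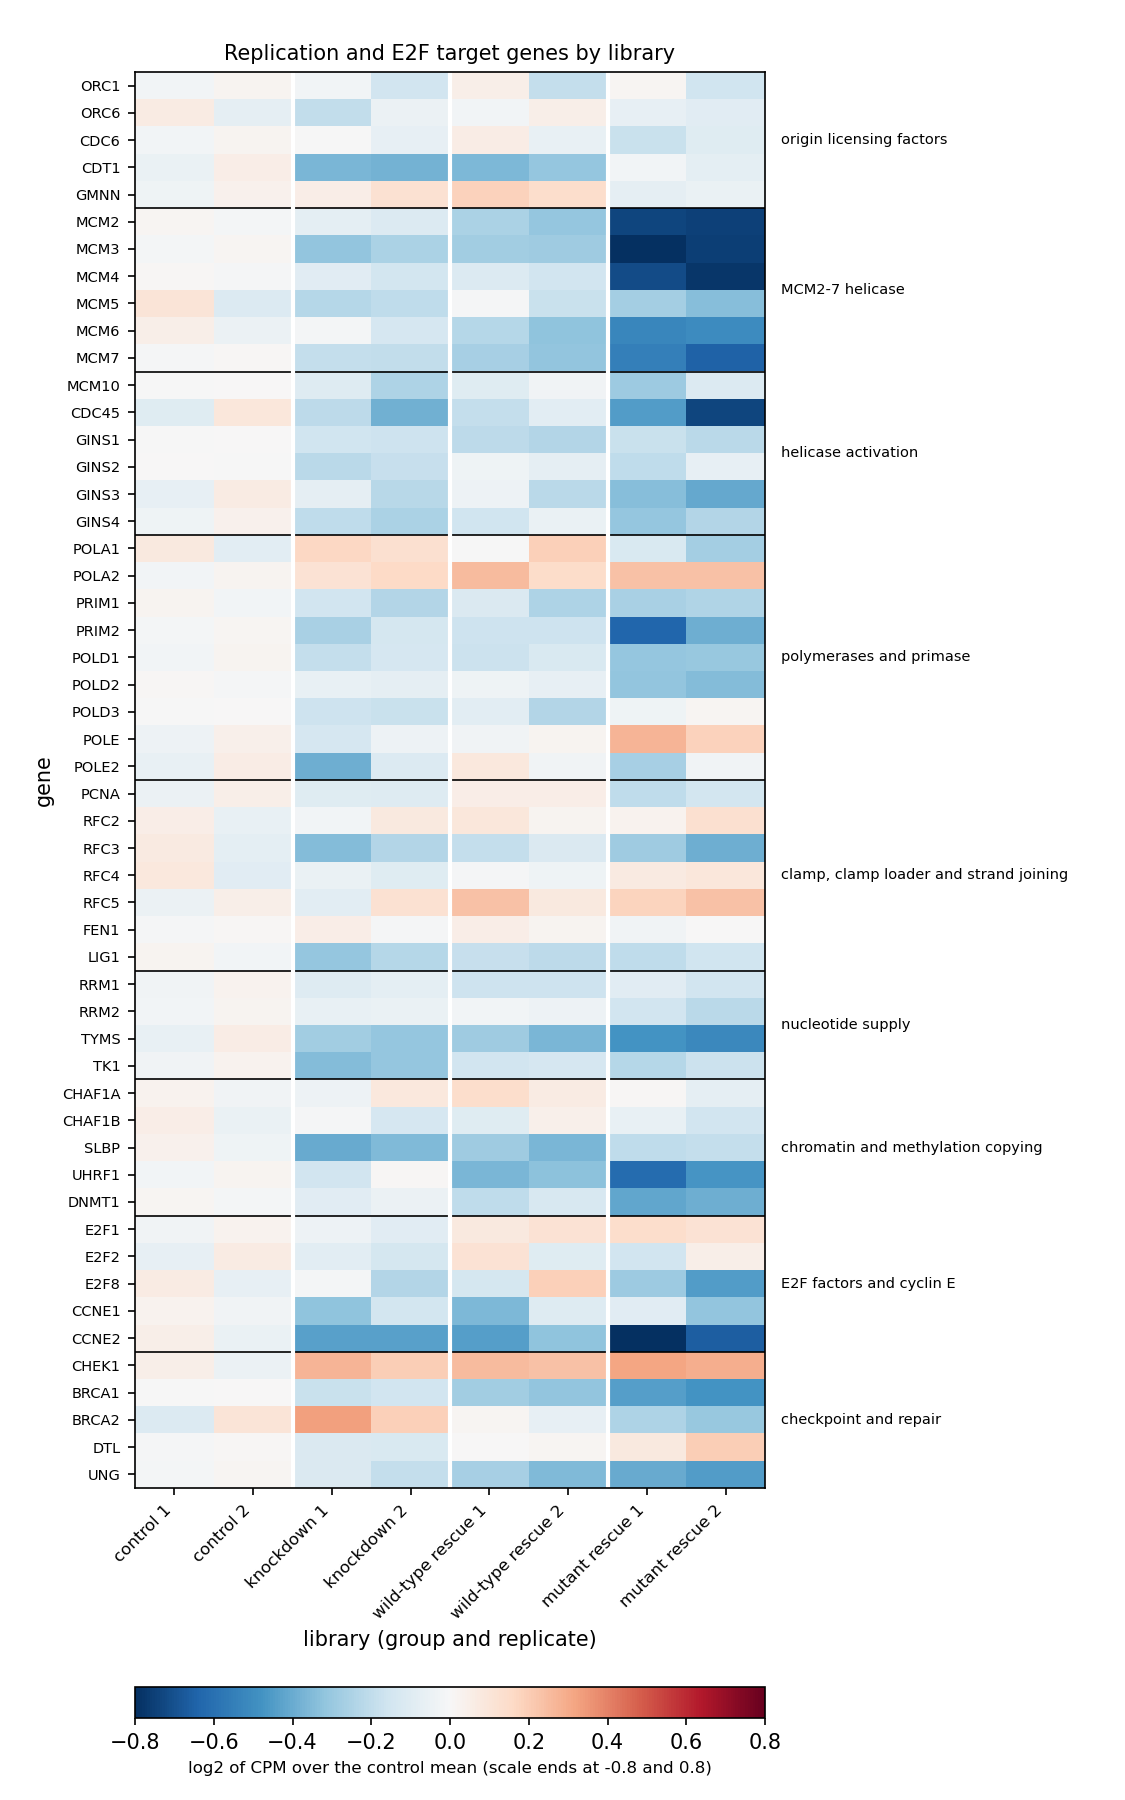
Heat map of log2 CPM relative to the control mean for the 52 genes (rows, ordered by role) in the 8 libraries (columns); blue is lower and red is higher, and the scale ends at -0.8 and 0.8. Among the darkest cells are MCM2, MCM3 and MCM4, CDC45 in replicate 2 and cyclin E2 (CCNE2), all in the mutant rescue, while CHEK1 and POLA2 are red in the 3 lines with the METTL3 hairpin.

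A gene is called here when its adjusted p is under 0.05 in edgeR's quasi-likelihood test, with Benjamini-Hochberg adjustment over all 15289 genes. The spread between libraries was small (a biological coefficient of variation of 1.4%), so that many genes passed. In the knockdown against the control 48% of all tested genes were called, 22.9% up and 25.1% down. Of the members 2 rose (CHEK1 and BRCA2) and 22 fell (42.3%), with a median log2 fold change of -0.12 against -0.01 over all tested genes. No member changed by more than 1.5-fold there, while 1826 of the 15289 tested genes did. The median absolute log2 fold change was 0.14 for the members and 0.19 for all tested genes. With DESeq2's test 1 member rose and 8 fell, and without control replicate 2 the number that fell in edgeR was 11. The members that fell in each alternative were CDT1, MCM3, MCM7, RFC3, LIG1, TK1, SLBP and CCNE2.

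The mutant rescue relative to the wild-type rescue, the comparison of a catalytically dead with a wild-type METTL3 per the labels, with METTL3 RNA high in both lines and its activity not measured here, had 3 members that rose (CDT1, POLE and SLBP) and 22 that fell (42.3%). Among all tested genes 21% rose and 20.3% fell, 41.3% in either direction. The median log2 fold change was -0.14 over the members and 0.00 over all tested genes. Only 1 member, MCM4, changed by more than 1.5-fold, while 1138 of the 15289 tested genes did. The median absolute log2 fold change was 0.16 for the members and 0.17 for all tested genes. DESeq2's test called 2 members up and 11 down, and without mutant rescue replicate 2 edgeR called 14 down. The calls that held in each alternative were falls of MCM2, MCM3, MCM4, MCM6, MCM7, CDC45, PCNA, POLD2 and DNMT1 and rises of CDT1 and POLE.

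Against the control, the mutant rescue showed the largest number of calls, with 32 members down (61.5%) and 5 up (POLA2, POLE, RFC5, E2F1 and CHEK1). Over all tested genes 29.7% fell and 29.1% rose, 58.8% in either direction, and the medians were -0.20 for the members and 0.00 for all. DESeq2's test called 23 members down and 4 up, and without control replicate 1 edgeR called 3 up. Falls of more than 1.5-fold were found for 6 of the 52 members, MCM2, MCM3, MCM4, MCM7, CDC45 and CCNE2. Over all tested genes 2836 of 15289 changed by more than 1.5-fold in either direction. The median absolute log2 fold change was 0.20 for the members and 0.26 for all tested genes, so the typical member changed less. The wild-type rescue against the control had 21 members down (40.4%) and 4 up, where 25.5% of all tested genes fell and 23.8% rose, 49.3% in either direction. No member changed by more than 1.5-fold in that comparison, while 1816 of the 15289 tested genes did. The median absolute log2 fold change was 0.20 for all tested genes and 0.14 for the members. DESeq2's test called 13 of them down and 1 up there, and 1 rose in edgeR without control replicate 1 or without wild-type rescue replicate 1.

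**Figure D2:**
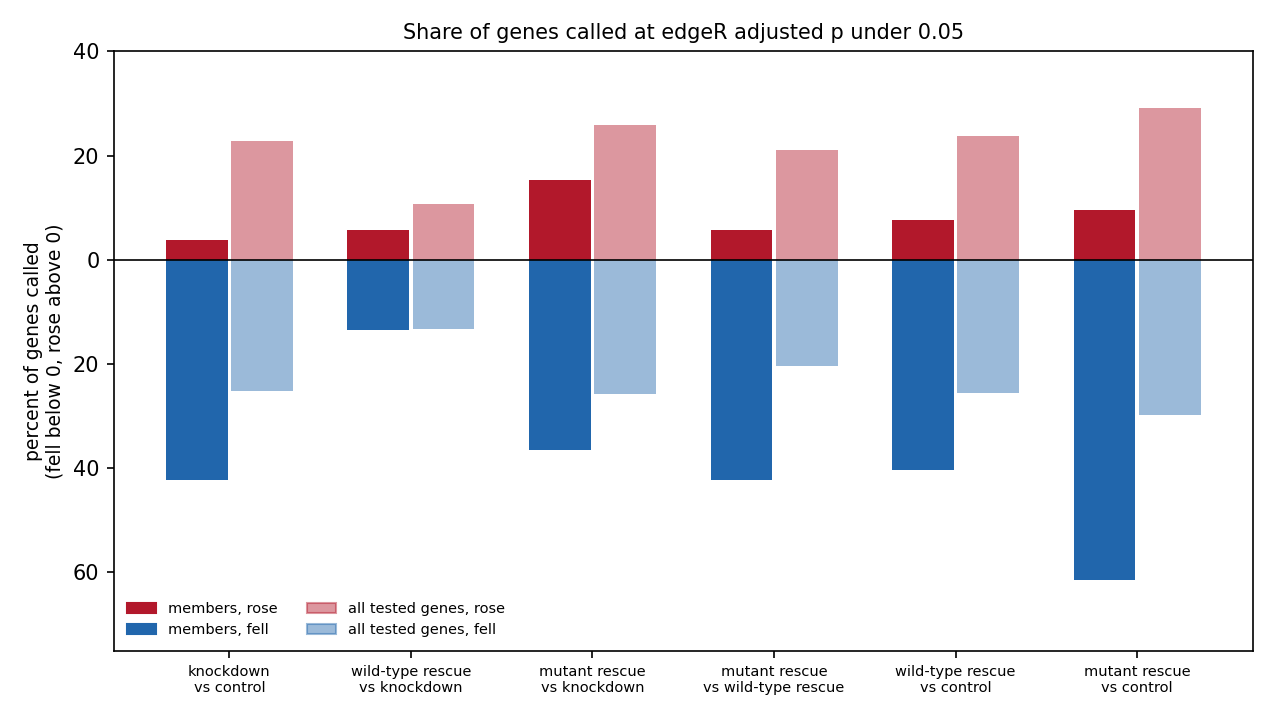
Percent of genes called in each of the 6 comparisons, members (dark bars) and all tested genes (pale bars), with rises above 0 and falls below 0 in percent of genes. The share of members that fell lies above that of all tested genes in 5 comparisons and beside it in the wild-type rescue against the knockdown (13.5% and 13.2%).

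The wild-type rescue moved few members away from the knockdown. Against the knockdown, 3 members rose (PCNA, TK1 and E2F1) and 7 fell (13.5%), where 10.8% of all tested genes rose and 13.2% fell (24% in either direction), so both shares lay near or below the background. The medians were 0.03 for the members and 0.01 for all tested genes. DESeq2's test called 1 up and 1 down, with 9 members left without an adjusted p. Without knockdown replicate 1, or without wild-type rescue replicate 2, edgeR called 3 down, and without knockdown replicate 2 it called 4. The mutant rescue against the knockdown had 8 members up (15.4%) and 19 down (36.5%), where 25.9% of all tested genes rose and 25.8% fell (51.7% in either direction), with medians of -0.05 and 0.00. DESeq2's test called 5 up and 12 down, and 5 rose in edgeR without knockdown replicate 1.

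Among the licensing factors CDT1 changed most, and it did so in an order unlike that of the helicase it loads. CDT1 stood at 49.8 and 53.5 CPM in control libraries, 40.1 and 39.8 in knockdown, 40.2 and 41.8 in wild-type rescue and 50.8 and 48.9 in mutant rescue libraries. The knockdown and wild-type rescue libraries were all low, and the mutant rescue overlapped the control. CDT1 fell in the knockdown by 0.37 on the log2 scale (SE 0.06, adjusted p = 2.94e-09) and was higher in the mutant rescue than in the wild-type rescue by 0.28 (SE 0.06, adjusted p = 9.53e-06). Against the knockdown it rose in the mutant rescue by 0.32 (SE 0.06, adjusted p = 3.28e-07), and in the wild-type rescue the difference was 0.04 (SE 0.06, adjusted p = 0.696). Geminin, the inhibitor of CDT1, went the other way between the rescues. GMNN was at 32.2 and 33.8 CPM in control, 34.2 and 35.8 in knockdown, 37.4 and 36.4 in wild-type rescue and 31.4 and 31.8 in mutant rescue libraries. Its 2 mutant rescue libraries were below those of every other group, at a log2 fold change of -0.22 against the wild-type rescue (SE 0.06, adjusted p = 0.00284), a call that ended with DESeq2's test (adjusted p = 0.0607). ORC1 and ORC6, subunits of the origin recognition complex, and CDC6, the ATPase that joins it, passed the test in none of the 6 comparisons. ORC1 ranged from 12.8 to 15.1 CPM, ORC6 from 22.7 to 27.3 and CDC6 from 30.5 to 36 over the 8 libraries.

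The 6 genes of the MCM helicase, the hexamer that unwinds DNA at the fork, were lower in the mutant rescue than in any other line. Their summed level was 497.8 ± 6.36 CPM in control, 446.7 ± 5.122 in knockdown (89.73% of the control), 423.9 ± 12.23 in wild-type rescue (85.15%) and 318.6 ± 6.501 in mutant rescue (64%; mean ± SD, n = 2 each). All 6 fell in the mutant rescue relative to the wild-type rescue (5 of 6 with DESeq2's test, and 5 of 6 without wild-type rescue replicate 1 or without mutant rescue replicate 2) and against the control (6 of 6 in each alternative). Among all tested genes 20.3% fell in the first of these comparisons and 29.7% in the second. Median log2 fold changes of the 6 genes were -0.38 and -0.67.

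MCM4 was at 117 and 115 CPM in control, 109 and 105 in knockdown, 108 and 104 in wild-type rescue and 70.7 and 67.7 in mutant rescue libraries. MCM3 was at 61.7 and 63.1 CPM in control, 50.1 and 52.4 in knockdown, 51.5 and 51.2 in wild-type rescue and 35.9 and 37 in mutant rescue libraries. MCM2 was at 92.4 and 90.8 CPM in control, 86.9 and 85 in knockdown, 76.9 and 73.9 in wild-type rescue and 55 and 54.6 in mutant rescue libraries. For these 3 subunits the mutant rescue libraries lay far below all others. The knockdown and wild-type rescue overlapped for MCM3 and MCM4, whereas MCM2 was lower in the wild-type rescue than in the knockdown. Between the rescues MCM4 had a log2 fold change of -0.61 (SE 0.04, adjusted p = 2.38e-28), MCM3 one of -0.49 (SE 0.06, adjusted p = 5.2e-14) and MCM2 one of -0.46 (SE 0.05, adjusted p = 1.61e-15). Against the control the mean of MCM4 fell by 40.35% in the mutant rescue, that of MCM3 fell by 41.57% and that of MCM2 fell by 40.18%.

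MCM7 was at 140 and 141 CPM in control, 123 and 123 in knockdown, 117 and 113 in wild-type rescue and 95.9 and 89.8 in mutant rescue libraries. MCM6 was at 52.1 and 48.9 CPM in control, 50 and 46 in knockdown, 43.1 and 40.4 in wild-type rescue and 35.1 and 35.7 in mutant rescue libraries. MCM5 was at 39.6 and 34.3 CPM in control, 31.5 and 32.2 in knockdown, 36.7 and 32.6 in wild-type rescue and 30.6 and 29.1 in mutant rescue libraries. The mutant rescue was again lowest for each, but for MCM5 the groups stood close together and the wild-type rescue overlapped the control. Between the rescues the log2 fold changes were -0.31 for MCM7 (SE 0.04, adjusted p = 9.48e-12), -0.24 for MCM6 (SE 0.06, adjusted p = 0.000697) and -0.21 for MCM5 (SE 0.07, adjusted p = 0.00923). The call for MCM5 ended with DESeq2's test (adjusted p = 0.115), without wild-type rescue replicate 1 (0.236) and without mutant rescue replicate 2 (0.115).

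In the knockdown against the control 4 of the 6 MCM genes fell, MCM3 by 0.28 (SE 0.05, adjusted p = 2.97e-07), MCM7 by 0.19 (SE 0.04, adjusted p = 1.36e-06), MCM5 by 0.21 (SE 0.07, adjusted p = 0.00418) and MCM4 by 0.12 (SE 0.04, adjusted p = 0.00794) on the log2 scale. DESeq2's test kept MCM3 and MCM7 (MCM4 0.12, MCM5 0.112), as did edgeR without control replicate 1 (MCM4 0.0583, MCM5 0.317), and MCM4 was also lost without knockdown replicate 2 (0.115). In the wild-type rescue 5 of the 6 fell against the control, MCM5 at -0.10 did not pass the test (adjusted p = 0.209), and the fall of MCM4 there (-0.13, adjusted p = 0.00234) was lost with DESeq2's test (0.0579) and without wild-type rescue replicate 2 (0.0596). Among all tested genes 25.1% fell in the knockdown and 25.5% in the wild-type rescue, each against the control. From the knockdown to the wild-type rescue 13.2% of all tested genes fell. MCM2, MCM6 and MCM7 were lower in the wild-type rescue than in the knockdown, by 0.19 (SE 0.04, adjusted p = 0.000341), 0.21 (SE 0.06, adjusted p = 0.0024) and 0.10 (SE 0.04, adjusted p = 0.0368). MCM2 kept that call in each alternative, while MCM6 lost it with DESeq2's test (0.0752), without knockdown replicate 1 (0.171) and without wild-type rescue replicate 2 (0.109). MCM7 lost it with DESeq2's test (0.179) and without either knockdown library or wild-type rescue replicate 2 (0.114 to 0.31).

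**Figure D3:**
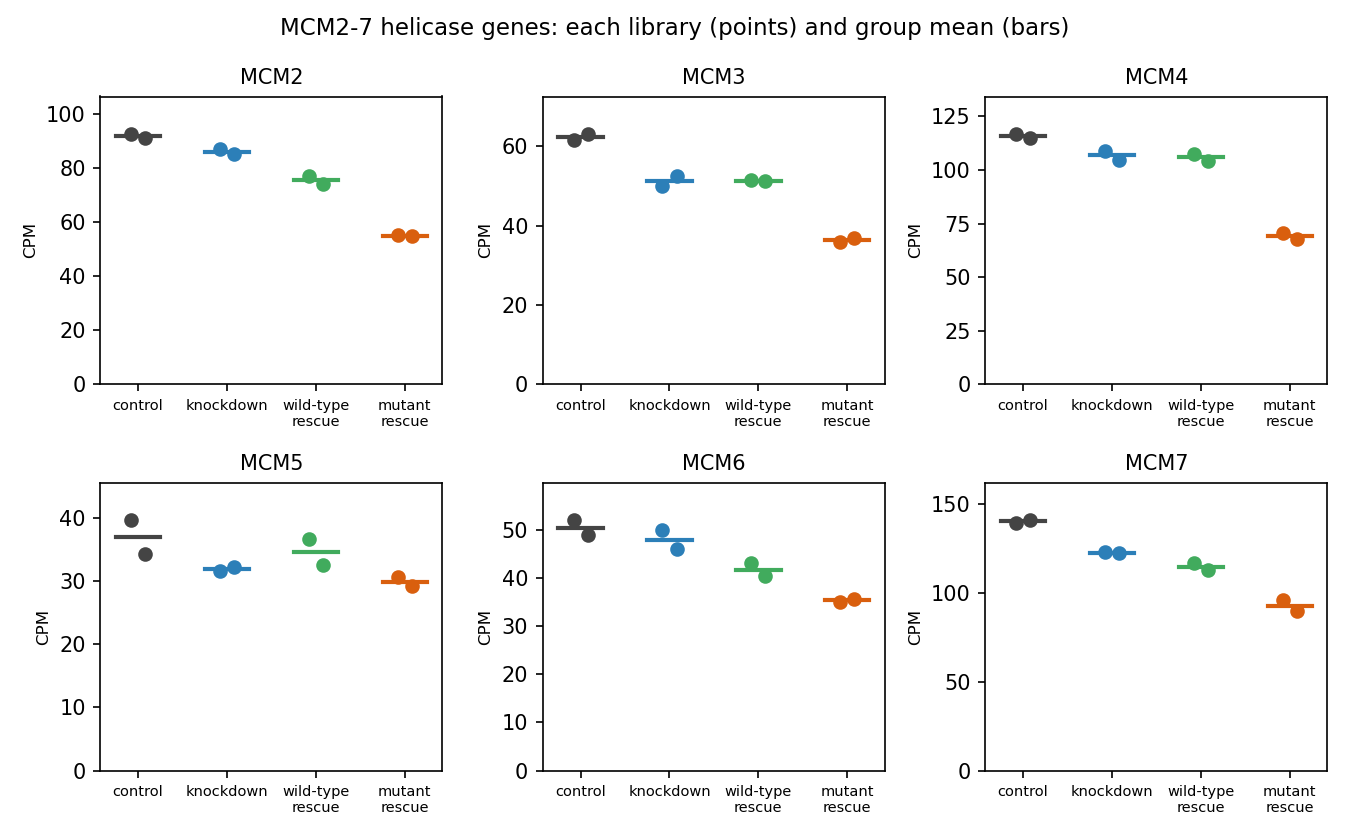
CPM of MCM2 to MCM7 in each library (points) with the group mean (bars), 1 panel per gene, each axis starting at 0. The 2 mutant rescue points lie below every other point in all 6 panels, and the gap is widest for MCM4 (67.7 to 70.7 CPM against 104 or more elsewhere).

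The subunits are used in equal numbers in the hexamer, but their RNA was not equal. Per length (CPM per kilobase of the deposited gene length) the MCM sum was 136.9 and 134 in control, 121.8 and 120.3 in knockdown, 117.6 and 112.6 in wild-type rescue and 88.81 and 86.36 in mutant rescue libraries. The most abundant subunit was 2.61 to 2.99 times the least abundant one in each library. MCM7 led with 27.18 to 29.57% of the sum and MCM6 gave 9.483 to 10.91%.

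Among the factors that switch the loaded helicase on, CDC45 changed most. CDC45, which rides with MCM and GINS at the fork, was at 26.8 and 30.5 CPM in control, 24.8 and 22 in knockdown, 25.2 and 27.1 in wild-type rescue and 21 and 17.2 in mutant rescue libraries. The mutant rescue was below every other library, and the wild-type rescue overlapped the control. Its log2 fold change was -0.46 between the rescues (SE 0.08, adjusted p = 1.52e-06) and -0.59 in the mutant rescue against the control (adjusted p = 2.5e-10). In the knockdown it fell by 0.29 (SE 0.08, adjusted p = 0.000887), a call lost with DESeq2's test (0.0596), without control replicate 2 (0.11) and without knockdown replicate 2 (0.0562). Of the 4 GINS subunits, GINS4 was at 24.3 and 25.4 CPM in control, 21.6 and 20.8 in knockdown, 22.3 and 24 in wild-type rescue and 20.1 and 21.2 in mutant rescue libraries. GINS3 was at 15.4 and 16.8, 15.3 and 13.8, 15.7 and 13.9, and 12.7 and 12.1 CPM in the same order. The control was highest for GINS4 and the mutant rescue lowest for GINS3. GINS4 fell in the knockdown by 0.23 (SE 0.08, adjusted p = 0.0116), which was lost with DESeq2's test (0.14), without control replicate 2 (0.107) and without knockdown replicate 2 (0.0776). GINS3 fell between the rescues by 0.25 (SE 0.10, adjusted p = 0.045), and 7 alternatives ended that call, DESeq2's test with an adjusted p of 0.214 and the removal of wild-type rescue replicate 1 with 0.331 among them. GINS1 and MCM10, a scaffold of helicase activation, also fell in the knockdown, at -0.16 and -0.17 (adjusted p = 0.0146 and 0.0475). Both calls were lost with DESeq2's test (0.168 and 0.272), without either control library and without knockdown replicate 2. The call for GINS1 also ended without knockdown replicate 1 and with the replicate block and length trend removal together. That for MCM10 also ended with DESeq2 size factors, with no filter and with only the 2 groups compared. GINS2 passed in none of the 6 comparisons. As a class the 6 genes in knockdown libraries summed to 87.08% of the control, with 91.43% for the wild-type and 82.31% for the mutant rescue.

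The polymerase and primase genes did not move as one. POLE, the catalytic subunit of the leading-strand polymerase epsilon, was at 74 and 78.5 CPM in control, 69.6 and 74 in knockdown, 74.9 and 77.6 in wild-type rescue and 92.2 and 86.9 in mutant rescue libraries. The mutant rescue was above every other library. It was higher than the wild-type rescue by 0.23 (SE 0.04, adjusted p = 6.94e-06) and than the control by 0.23 (adjusted p = 4.07e-06). POLD2, the accessory subunit of polymerase delta, did the reverse, at 255 and 251 CPM in control, 243 and 241 in knockdown, 247 and 242 in wild-type rescue and 203 and 199 in mutant rescue libraries. It fell between the rescues by 0.28 (SE 0.03, adjusted p = 1.33e-17). POLD1, the catalytic subunit of the same enzyme, was at 55.2 and 56.8 CPM in control, 49.1 and 51 in knockdown, 49.8 and 51.4 in wild-type rescue and 45.1 and 45.3 in mutant rescue libraries. The control libraries were highest and the mutant rescue lowest. In the knockdown POLD1 fell by 0.16 (SE 0.05, adjusted p = 0.00429), a call lost with DESeq2's test (0.11), without control replicate 2 (0.0705) and without knockdown replicate 1 (0.0826). In the mutant rescue against the control it fell by 0.31 (adjusted p = 1.28e-07), which held in each alternative.

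The polymerase alpha and primase complex was split in the same way. POLA1, its catalytic subunit, was at 25.5 and 22.7 CPM in control, 27 and 26.3 in knockdown, 24 and 27.5 in wild-type rescue and 22.1 and 20 in mutant rescue libraries. PRIM2, the large primase subunit, was at 10.9 and 11.2, 9.25 and 10, 9.86 and 9.89, and 7.15 and 8.44 CPM in the same order. Both were lowest in the mutant rescue, at -0.30 for POLA1 (SE 0.08, adjusted p = 0.00119) and -0.34 for PRIM2 (SE 0.13, adjusted p = 0.0219) against the wild-type rescue. The call for POLA1 was lost without wild-type rescue replicate 2 (0.137) and without mutant rescue replicate 2 (0.0694), and that for PRIM2 with DESeq2's test (0.155), without either wild-type rescue library (0.0625 and 0.0842) and without mutant rescue replicate 1 (0.266). PRIM2 had the fewest reads of the members, 108 to 179 counts per library. PRIM1, the small primase subunit, was at 29 and 28.1 CPM in control, 25.7 and 24.3 in knockdown, 26.3 and 24 in wild-type rescue and 23.9 and 24.1 in mutant rescue libraries. The control was above the other 3 lines, which overlapped or lay side by side. It fell in the knockdown by 0.19 (SE 0.07, adjusted p = 0.0248), lost with DESeq2's test (0.199), with the length trend removed (0.0967) and without either control library (0.137 and 0.0529) or knockdown replicate 2 (0.163). POLA2, the second subunit of polymerase alpha, rose instead, by 0.20 in the wild-type rescue (adjusted p = 0.00425) and 0.24 in the mutant rescue (adjusted p = 0.000614) against the control. The first of these was lost with DESeq2's test (0.0704), without control replicate 1 (0.061) and without wild-type rescue replicate 1 (0.093). POLD3 and POLE2 passed in none of the 6 comparisons.

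The sliding clamp PCNA, which holds polymerases on DNA, was at 76.6 and 81.8 CPM in control, 74 and 73.8 in knockdown, 82.3 and 82.1 in wild-type rescue and 68.9 and 71.6 in mutant rescue libraries. Its wild-type rescue libraries were the highest and its mutant rescue libraries the lowest. PCNA fell between the rescues by 0.23 (SE 0.05, adjusted p = 1.58e-05) and rose from the knockdown to the wild-type rescue by 0.15 (adjusted p = 0.00588). That rise was lost with DESeq2's test (0.09) and with the length trend removed (0.306). RFC3, a subunit of the clamp loader, was at 39.7 and 35.7 CPM in control, 29.7 and 32 in knockdown, 33.1 and 34.8 in wild-type rescue and 31 and 28.8 in mutant rescue libraries. LIG1, the ligase that joins lagging-strand fragments, was at 29.7 and 28.7, 23.6 and 25, 25.7 and 25.3, and 25.3 and 26.1 CPM in the same order. For both, the control lay above the 3 lines with the METTL3 hairpin. RFC3 fell in the knockdown by 0.29 (SE 0.07, adjusted p = 6.71e-05) and LIG1 by 0.27 (SE 0.07, adjusted p = 0.00116), and both calls held in each alternative. Between the rescues RFC3 fell by 0.18 (SE 0.07, adjusted p = 0.0205), lost with DESeq2's test (0.168), without wild-type rescue replicate 2 (0.191) and without mutant rescue replicate 2 (0.239). LIG1 was at 0.02 there. The other loader subunits RFC2, RFC4 and RFC5 and the flap nuclease FEN1 did not pass in the knockdown or between the rescues. RFC5 was higher in the mutant rescue than in the control by 0.21 (adjusted p = 0.000604), a call lost without control replicate 1 (0.0561).

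All 4 genes for deoxynucleotide supply fell in the mutant rescue against the control, and did so in each alternative. Among all tested genes 29.7% fell in that comparison. Against the control, 3 of the 4 also fell in the knockdown and 3 in the wild-type rescue, where 25.1% and 25.5% of all tested genes fell. TK1, the salvage enzyme thymidine kinase, was at 85.3 and 88.5 CPM in control, 68.2 and 70 in knockdown, 78 and 79.1 in wild-type rescue and 74.1 and 77.1 in mutant rescue libraries. The knockdown was lowest and both rescues lay between it and the control. TK1 fell in the knockdown by 0.33 (SE 0.05, adjusted p = 1.43e-10) and was higher in the wild-type rescue than in the knockdown by 0.19 (adjusted p = 0.000765), which was lost with the length trend removed (0.076). TYMS, thymidylate synthase, was at 22.5 and 24.4 CPM in control, 19.3 and 18.9 in knockdown, 19.3 and 18.2 in wild-type rescue and 16.8 and 16.4 in mutant rescue libraries. RRM2, the regulated subunit of ribonucleotide reductase, was at 98.9 and 102, 96.5 and 96.8, 98.8 and 97.6, and 90.4 and 86.4 CPM in the same order. TYMS was highest in the control and lowest in the mutant rescue, and RRM2 was also lowest in the mutant rescue. TYMS fell in the knockdown by 0.29 (SE 0.08, adjusted p = 0.00169), lost with DESeq2's test (0.0617) and without control replicate 2 (0.0604). RRM2 fell between the rescues by 0.15 (SE 0.04, adjusted p = 0.00132), lost without mutant rescue replicate 2 (0.0604). RRM1, the large reductase subunit, fell by 0.17 in the wild-type rescue against the control (adjusted p = 2.11e-06) and by 0.12 in the mutant rescue (adjusted p = 0.000381).

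SLBP, which binds the stem-loop of histone messenger RNA, followed the pattern of CDT1. It was at 90 and 85.7 CPM in control, 66.4 and 68.6 in knockdown, 72.2 and 68.3 in wild-type rescue and 76.3 and 76.8 in mutant rescue libraries. The mutant rescue stood above the other 2 hairpin lines and below the control. SLBP fell in the knockdown by 0.38 (SE 0.05, adjusted p = 7.01e-13) and was higher in the mutant rescue than in the knockdown by 0.18 (adjusted p = 0.000515). Its rise of 0.13 between the rescues (SE 0.05, adjusted p = 0.0225) was lost with DESeq2's test (0.151), without wild-type rescue replicate 2 (0.275) and without either mutant rescue library (0.0683 and 0.0991). DNMT1, the maintenance DNA methyltransferase, and UHRF1, which brings it to newly copied DNA, were stepwise lower instead. DNMT1 was at 149 and 146 CPM in control, 139 and 143 in knockdown, 128 and 135 in wild-type rescue and 111 and 113 in mutant rescue libraries. UHRF1 was at 20 and 20.6, 18.3 and 20.5, 15.8 and 16.2, and 13.2 and 14.7 CPM in the same order. No group overlapped another for DNMT1, and for UHRF1 the control and knockdown overlapped. Neither gene passed in the knockdown against the control. Both fell from the knockdown to the wild-type rescue, calls lost with the length trend removed and without knockdown replicate 2 or wild-type rescue replicate 1. That call for DNMT1 was also lost with DESeq2's test (adjusted p = 0.151). DNMT1 fell between the rescues by 0.24 (SE 0.04, adjusted p = 6.96e-09). UHRF1 was at -0.20 there (adjusted p = 0.1) and fell by 0.54 against the control (adjusted p = 2.05e-07). CHAF1A, a subunit of the chromatin assembly factor at the fork, was at 68.5 and 66 CPM in control, 65.3 and 71.3 in knockdown, 74.1 and 70.5 in wild-type rescue and 67.8 and 64 in mutant rescue libraries. The wild-type rescue overlapped the knockdown and lay above the control and the mutant rescue. Between the rescues the log2 fold change was -0.13 (SE 0.05, adjusted p = 0.021), a call lost with DESeq2's test (0.151), without wild-type rescue replicate 1 (0.194) and without mutant rescue replicate 2 (0.26). CHAF1B passed in none of the 6 comparisons.

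The 3 E2F genes differed from each other. E2F1, an activating E2F, was at 52.7 and 54.8 CPM in control, 52.4 and 50.5 in knockdown, 56.7 and 58.3 in wild-type rescue and 59.1 and 58.2 in mutant rescue libraries. The rescues were above the control and knockdown and overlapped each other, with a log2 fold change of 0.19 in the mutant rescue against the knockdown (adjusted p = 0.000939) and 0.03 between the rescues. The rise from the knockdown to the wild-type rescue was lost with DESeq2's test (adjusted p = 0.132) and with the length trend removed. Against the control the wild-type rescue did not pass for E2F1. The rise in the mutant rescue there was lost with DESeq2's test and without control replicate 1 or either mutant rescue library. E2F2 passed in none of the 6 comparisons. E2F8, an E2F that represses, was at 11.8 and 10.7 CPM in control, 11.1 and 9.53 in knockdown, 10.2 and 12.8 in wild-type rescue and 9.2 and 8.25 in mutant rescue libraries. The mutant rescue was lowest, at -0.41 against the wild-type rescue (SE 0.12, adjusted p = 0.00305), lost with DESeq2's test (0.0811), without wild-type rescue replicate 2 (0.264) and without mutant rescue replicate 2 (0.0784).

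Of the cyclin E genes, CCNE2 had the largest fall of all members in the mutant rescue against the control. CCNE2 was at 15.7 and 14.6 CPM in control, 11.2 and 11.2 in knockdown, 11.2 and 12.1 in wild-type rescue and 7.87 and 9.57 in mutant rescue libraries. The control was highest, the mutant rescue lowest, and the other 2 lines lay together. It fell in the knockdown by 0.43 (SE 0.11, adjusted p = 0.000234) and in the mutant rescue against the control by 0.79 (SE 0.11, adjusted p = 4.04e-10), both in each alternative. Between the rescues it fell by 0.42 (SE 0.12, adjusted p = 0.00235), lost with DESeq2's test (0.0517), without wild-type rescue replicate 2 (0.0532) and without mutant rescue replicate 1 (0.118). CCNE1 was at 29.1 and 27.9 CPM in control, 22.8 and 25.7 in knockdown, 22.2 and 26.5 in wild-type rescue and 26.7 and 22.9 in mutant rescue libraries. The 3 hairpin lines overlapped below the control. CCNE1 fell in the knockdown by 0.24 (SE 0.08, adjusted p = 0.0071), lost with DESeq2's test (0.146), without control replicate 1 (0.0868) and without knockdown replicate 1 (0.223).

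Checkpoint and repair members gave the 2 rises of the knockdown. CHEK1, the kinase that slows replication when forks stall, was at 33.2 and 31.1 CPM in control, 38.9 and 36.9 in knockdown, 38.4 and 37.9 in wild-type rescue and 40 and 39.4 in mutant rescue libraries. All 6 libraries with the METTL3 hairpin were above the control. CHEK1 rose by 0.24 in knockdown (SE 0.06, adjusted p = 0.000795), 0.25 in wild-type rescue (adjusted p = 0.000532) and 0.30 in mutant rescue (adjusted p = 1.55e-05) against the control, 3 comparisons that share the control libraries, and the call held in each alternative. BRCA2, which acts in homologous recombination, was at 22.4 and 26 CPM in control, 30.4 and 27.6 in knockdown, 24.5 and 23.1 in wild-type rescue and 20.4 and 19.6 in mutant rescue libraries. The knockdown was highest, the wild-type rescue overlapped the control and the mutant rescue was lowest. BRCA2 rose in the knockdown by 0.26 (SE 0.08, adjusted p = 0.00181), lost with DESeq2's test (0.0612), with the length trend removed (0.0949), without control replicate 1 (0.158) and without knockdown replicate 1 (0.0935). It was lower in the mutant rescue than in the knockdown by 0.54 (adjusted p = 1.19e-09), which held in each alternative. Between the rescues it fell by 0.25 (SE 0.08, adjusted p = 0.00925), lost with DESeq2's test (0.103), without wild-type rescue replicate 1 (0.0838) and without mutant rescue replicate 2 (0.0898).

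BRCA1 and UNG, which removes uracil from DNA, were lower from line to line. BRCA1 was at 48.3 and 48.6 CPM in control, 42.9 and 43.5 in knockdown, 40 and 39 in wild-type rescue and 35.7 and 34.7 in mutant rescue libraries. UNG was at 67.9 and 69.7, 63.5 and 60.4, 57.3 and 53.9, and 52 and 50.5 CPM in the same order. No group overlapped another for either gene, but not every step passed the test. BRCA1 was not called in the wild-type rescue against the knockdown, and UNG was not called between the rescues. The falls of BRCA1 and UNG in the knockdown were lost with DESeq2's test (adjusted p = 0.141 and 0.118). The fall of UNG from the knockdown to the wild-type rescue was also lost with it (0.111). In the mutant rescue against the control BRCA1 fell by 0.46 (adjusted p = 4.76e-12) and UNG by 0.43 (adjusted p = 2.28e-13), in each alternative. BRCA1 fell between the rescues by 0.16 (SE 0.06, adjusted p = 0.0211), lost with DESeq2's test (0.147), without either wild-type rescue library (0.106 and 0.0502) and without mutant rescue replicate 2 (0.138). DTL, a substrate receptor of the ubiquitin ligase that removes CDT1 in S phase, passed only in the mutant rescue against the knockdown, at 0.26 (adjusted p = 0.000336).

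**Figure D4:**
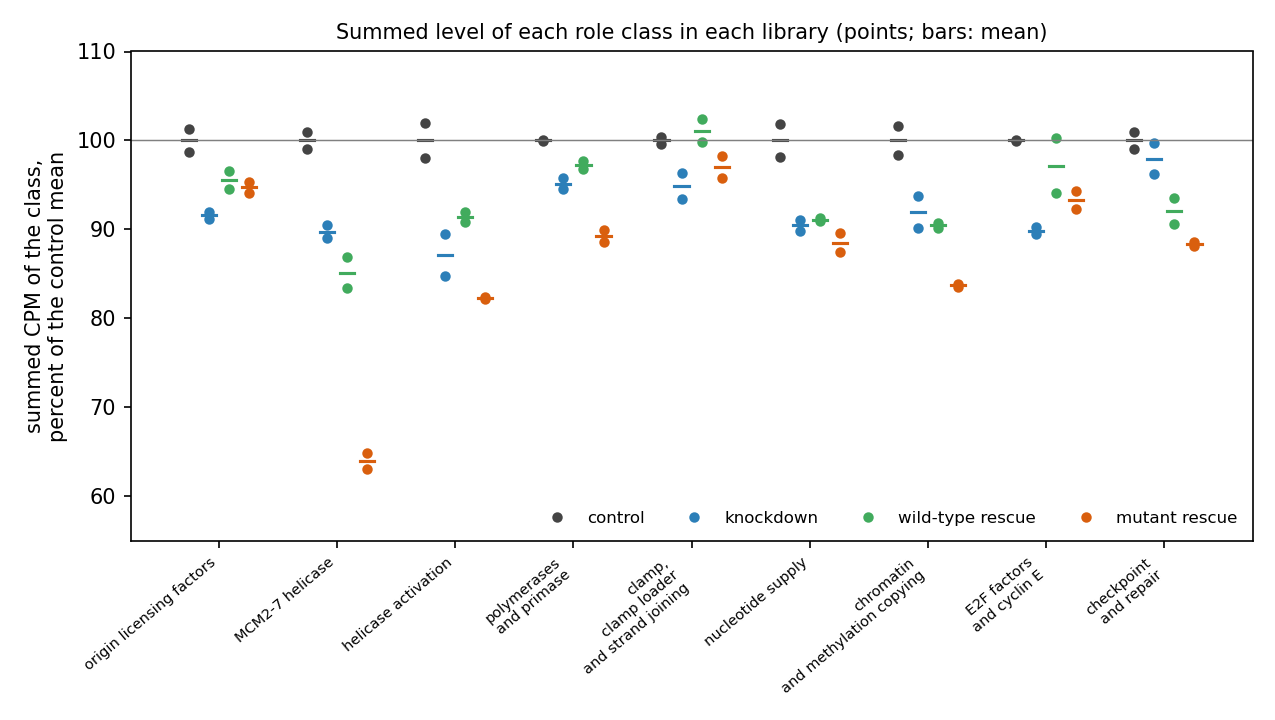
Summed CPM of each role class in each library (points, with the group mean as a bar), as percent of the control mean; the axis does not start at 0. The MCM class of the mutant rescue lies at 64% of the control, below every other class and line, where the next lowest mean is 82.31% (helicase activation in the mutant rescue).

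By role, the 3 hairpin lines differed most in the helicase. The 9 polymerase and primase genes summed to 95.14% of the control after knockdown, 97.23% with wild-type and 89.27% with mutant METTL3. Clamp, loader and joining genes came to 94.88%, 101.1% and 97.03%, and licensing factors to 91.59%, 95.56% and 94.75%. Nucleotide supply stood at 90.46%, 91.11% and 88.48%, and the chromatin and methylation genes at 91.92%, 90.45% and 83.73%. E2F factors with cyclin E gave 89.86%, 97.14% and 93.31%, and checkpoint and repair genes 97.96%, 92.09% and 88.37%. These sums weigh abundant genes most and were not tested.

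The knockdown against the control and the mutant rescue relative to the wild-type rescue share no library, so each gene's 2 values can be set side by side. Of the 22 members that fell in the first and the 22 that fell in the second, 10 were the same genes. That is 45.5% of either set, close to the 42.3% of all members that fell in each comparison, so the overlap itself is not a result about the members. Over all tested genes the overlap was 23.1% of the first set and 28.6% of the second. CDT1 and SLBP fell in the first and rose in the second, BRCA2 rose and then fell, and 16 members passed in neither. MCM2 and MCM4 had small differences in the knockdown (-0.09 and -0.12) beside their large ones between the rescues.

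**Figure D5:**
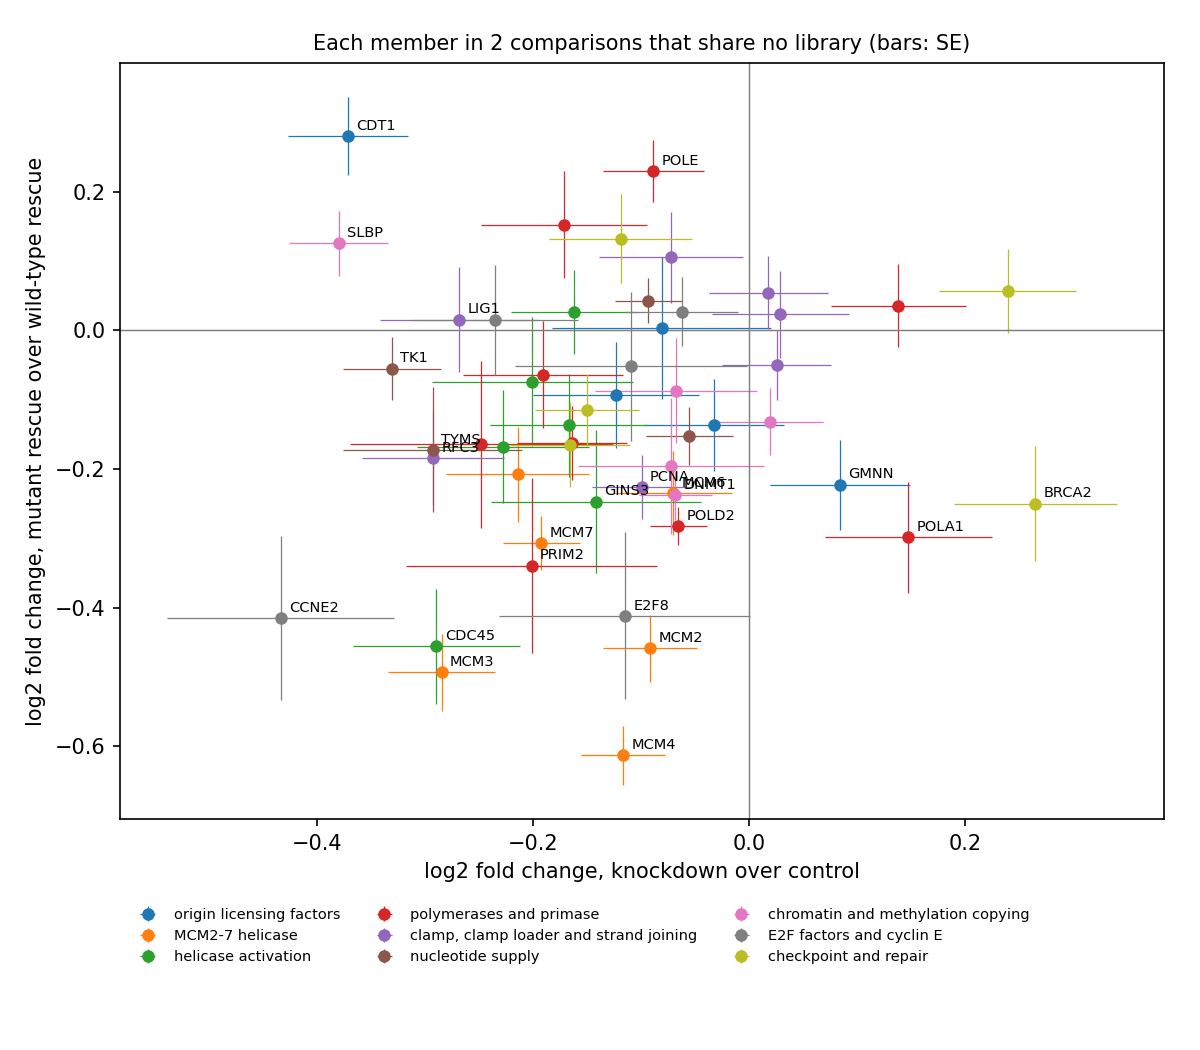
Log2 fold change of each member in the knockdown over the control (x axis) and in the mutant rescue over the wild-type rescue (y axis), with bars of 1 SE and colours by role. Most points lie in the lower left, with MCM4 lowest at -0.61 on the y axis, CCNE2 farthest left at -0.43 on the x axis and CDT1 at the upper left (-0.37 and 0.28).

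Among 4 lists of genes that work beside the members, the one for nucleotide synthesis had the largest share of falls in both main comparisons. Of 24 other nucleotide synthesis genes, 14 fell and 1 rose in the knockdown (12 and none with DESeq2's test), 14 fell and 1 rose in the mutant rescue relative to the wild-type rescue (13 and 1), and 20 fell and 1 rose in the mutant rescue against the control (19 and none). The falls were 58.3%, 58.3% and 83.3% of the list, where 25.1%, 20.3% and 29.7% of all tested genes fell, and the rises 4.17% each, where 22.9%, 21% and 29.1% rose. With the length trend removed 4 rose and 13 fell in the knockdown, and the count of rises there was 0 to 4 over all alternatives (0 without either control library, 2 without wild-type rescue replicate 1 or mutant rescue replicate 1). Their median log2 fold changes were -0.13, -0.22 and -0.47. PPAT, the first committed enzyme of purine synthesis, had means that differed by -0.77 in the knockdown (SE 0.05, adjusted p = 2.38e-30), and DHODH of pyrimidine synthesis was at -0.38 (SE 0.06, adjusted p = 1.09e-07). GMPS was the gene that rose, at 0.11 (adjusted p = 0.0174), a call lost with DESeq2's test (0.12), without either control library (0.0531 and 0.0949) and without knockdown replicate 2 (0.108). Between the rescues CTPS1, CTP synthase, was at -0.63 (SE 0.06, adjusted p = 1.13e-19). RRM2B, a reductase subunit induced by p53, rose by 0.39 (SE 0.03, adjusted p = 3.5e-20).

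Of 32 regulators of the RB and E2F switch, 10 rose and 11 fell in the knockdown (6 and 8 with DESeq2's test), and 8 rose and 9 fell between the rescues (6 and 5). These are 31.2% and 34.4% of the list in the knockdown, beside 22.9% and 25.1% of all tested genes, and 25% and 28.1% between the rescues, near the background of 21% and 20.3%. Without wild-type rescue replicate 2, or without mutant rescue replicate 1, 4 and 5 fell between the rescues. CCND1, cyclin D1, fell in the knockdown by 0.66 (SE 0.02, adjusted p = 1.68e-62), and MYC, a driver of cell growth, by 0.65 (SE 0.02, adjusted p = 5.65e-62). CDKN2B, an inhibitor of cyclin D kinases, rose by 0.90 (SE 0.16, adjusted p = 8.74e-07) and CDK6, one of those kinases, by 0.77 (SE 0.14, adjusted p = 6.22e-07). These last 2 were scarce, CDK6 at 5.04 to 10.1 CPM. CDKN1A, the p53-induced inhibitor of cyclin-dependent kinases, was at 366 and 362 CPM in control, 442 and 455 in knockdown, 516 and 530 in wild-type rescue and 958 and 930 in mutant rescue libraries. The mutant rescue stood far above the other lines, by 0.85 against the wild-type rescue (SE 0.02, adjusted p = 1.93e-83). CDKN2D, a further inhibitor of cyclin D kinases, rose there by 0.54 (SE 0.07, adjusted p = 8.16e-11). MYC fell there by 0.52 (SE 0.03, adjusted p = 7.56e-43), and RBL1, which encodes the RB relative p107, by 0.36 (SE 0.09, adjusted p = 0.000426), the latter lost without mutant rescue replicate 1 (0.0777).

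Of 32 other initiation and fork genes, 3 rose and 9 fell in the knockdown (1 and 4 with DESeq2's test), and 10 rose and 10 fell between the rescues (5 and 7). The 28.1% that fell in the knockdown is near the 25.1% of all tested genes, and the 9.38% that rose compares with 22.9%. Between the rescues 31.2% went each way, beside 21% up and 20.3% down over all tested genes, and 6 rose without wild-type rescue replicate 2 and 5 without mutant rescue replicate 1. TIPIN, which steadies the fork with TIMELESS, fell in both, by 0.45 (SE 0.10, adjusted p = 9.12e-05) and 0.50 (SE 0.12, adjusted p = 0.000324). CHTF18, of an alternative clamp loader, fell in the knockdown by 0.33 (SE 0.05, adjusted p = 5.5e-09), and TOP1, topoisomerase I, rose by 0.22 (SE 0.03, adjusted p = 1.8e-10). CLSPN, the adaptor that activates CHEK1, fell between the rescues by 0.43 (SE 0.08, adjusted p = 3.95e-07), and DONSON, a factor of helicase assembly, rose by 0.30 (SE 0.08, adjusted p = 0.000904). DONSON's rise of 0.22 in the knockdown (adjusted p = 0.0314) was lost with DESeq2's test (0.169) and without control replicate 1 or either knockdown library (0.0912 to 0.311). ORC3 rose between the rescues by 0.31 (adjusted p = 0.019), lost with DESeq2's test (0.158) and without any 1 of the 4 rescue libraries (0.0515 to 0.109).

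Of 24 other S-phase repair genes, 5 rose and 7 fell in the knockdown (4 and 4 with DESeq2's test), and 2 rose and 8 fell between the rescues (1 and 5). The shares in the knockdown, 20.8% up and 29.2% down, are near those of all tested genes (22.9% and 25.1%), and between the rescues they were 8.33% and 33.3% (21% and 20.3%). With the length trend removed, or without knockdown replicate 2, 3 rose in the knockdown, and between the rescues 5 fell without mutant rescue replicate 2 and 1 rose without wild-type rescue replicate 2. NBN, of the complex that senses breaks, rose in the knockdown by 0.54 (SE 0.05, adjusted p = 1.45e-19), while BRIP1, a helicase partner of BRCA1, and CHEK2, a checkpoint kinase, each fell by 0.32 (adjusted p = 0.000519 and 5.7e-05). Between the rescues XRCC2, of homologous recombination, fell by 0.47 (SE 0.10, adjusted p = 5.43e-05) and RAD54L, of the same pathway, rose by 0.29 (SE 0.06, adjusted p = 4.23e-05). WEE1, which restrains entry to mitosis, rose between the rescues by 0.17 (adjusted p = 0.0058), lost with DESeq2's test (0.0955), without wild-type rescue replicate 2 (0.0776) and without mutant rescue replicate 1 (0.159).

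Per length the members spanned a wide range of levels. Averaged over the 8 libraries POLD2 was highest at 101.8 CPM per kilobase, followed by PCNA (52.99), TK1 (48.61), RRM1 (46.04), SLBP (33.84), MCM7 (32.23) and RRM2 (27.93). The lowest were E2F8 (2.631), E2F2 (2.434) and BRCA2 (2.129). Some counts may hold reads of other genes, since the strand setting of the counting is not given in the sources used here. In GENCODE v29, used for structure alone, 16 members have an exon overlapped by a gene on the opposite strand, MCM2, MCM7, CCNE2, LIG1 and BRCA1 among them, and 10 on the same strand. For 8 members (FEN1, PCNA, POLD2, RFC3, RFC5, RRM2, TYMS and UNG) a pseudogene carries the gene's name, and reads that fit both copies could have been split or dropped.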

How the data were processed

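RNA was measured in 8 LNCaP libraries, 4 groups of 2. Per the labels' protocols, total RNA was extracted with TRIzol and libraries were made with the KAPA Stranded mRNA-Seq kit. Per the submitters' processing notes the tools were CASAVA, STAR 2.5.2b, featureCounts and DESeq2, with the build hg19; parameters, annotation and strand setting are not given in the sources used here. Deposited values are unnormalized counts for each gene with its length in bases, per the file headers.

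The count model was edgeR 4.0.16 under R 4.3.3. After filterByExpr on the groups, with a minimum count of 10 and a total of at least 15, there were 15289 genes, which were scaled by TMM. All 8 libraries entered a robust quasi-likelihood fit with a mean for each group, and 6 comparisons were tested two-sided with Benjamini-Hochberg adjustment over all genes tested. A standard error is the absolute log2 fold change over the square root of F. With groups of 2 an exact permutation test cannot reach 0.05. Depth was 15200343 to 17893241 counts per library, and reads without molecular identifiers are not independent molecules.

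Values in every library are given for the 2 members per role class with the largest called change in the knockdown against the control and the 2 with the largest one between the rescues, and for further members whose pattern the text describes, chosen after their values were seen. From 4 lists of other pathway genes the 2 largest called rises and falls of those comparisons are named. Some genes that meet this rule are not reported here. The members and lists were chosen with earlier results of these data known. Alternatives were DESeq2 1.42.0 (size factors, and Wald test), no filter, only the groups compared, a gene length trend removed as an offset (lowess, span 0.3), the replicate number as a block, and each library left out in turn, where the lone library is assumed to vary like the other groups. "Each alternative" means these. The steps were tested on simulated data. Same-numbered libraries of different groups did not deviate together (r = -0.0424 to 0.025).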

Additional observations from a re-analysis of the deposited data

How the results depend on the processing

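Of 148 member calls over the 6 comparisons, 77 held in every alternative run, 71 were lost in at least 1 and 0 reversed. DESeq2's Wald test moved most counts. It called 4767 genes in the knockdown against the control (7337 in edgeR), with 1 member up and 8 down. It called 1705 genes in the wild-type rescue against the knockdown (3673), with 1 member up and 1 down, and 3749 between the rescues (6307), with 11 members down. It called 4995 genes in the wild-type rescue against the control (7531), with 1 member up and 13 down. In the mutant rescue against the knockdown it called 5 members up and 12 down. With the length trend removed, alone or with the replicate block, 1 member rose and 4 fell in the wild-type rescue against the knockdown. The rises of PCNA, TK1 and E2F1 were all lost, and the 1 rise was a new call. In that comparison fold change went with gene length over all tested genes (Spearman's rho -0.346, across genes, which are not independent replicates). For the other counts over all genes and all members these settings stayed within 1.5 times.

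The replicate block by itself changed 2 member calls and kept every count of genes and members within 1.5 times. It made RFC5 pass in the wild-type rescue against the knockdown (adjusted p = 0.0496) and ended the call for GINS3 in the mutant rescue against the knockdown (0.0514). Libraries with the same number share only a number.

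With each library left out in turn, the knockdown against the control gave 6020 to 7435 genes, 1 to 2 members up and 11 to 22 down. The wild-type rescue against the knockdown gave 2473 to 3680 genes, 3 to 4 up and 3 to 7 down. The mutant rescue against the knockdown gave 6631 to 7978 genes, 5 to 8 up and 14 to 19 down, and against the wild-type rescue 4959 to 6289 genes, 2 to 3 up and 14 to 22 down. The wild-type rescue against the control gave 6193 to 7525 genes, 1 to 4 up and 18 to 21 down, and the mutant rescue against the control 7737 to 9080 genes, 3 to 5 up and 27 to 32 down. Members with few counts, such as PRIM2, have wide errors at this depth.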
